A study of Mus musculus with 8 samples.

Results

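The laminin chains, the subunits from which the large laminin glycoproteins of the basement membrane are built, were examined in the mRNA of primary murine cardiac fibroblasts. Of the 22274 genes in the deposited table, 9 were taken by their symbols alone: the alpha chains Lama1, Lama2, Lama3, Lama4 and Lama5, the beta chains Lamb1, Lamb2 and Lamb3, and the gamma chain Lamc1. All 8 libraries came from cells treated with TGF-β, a cytokine that drives fibroblasts towards the contractile myofibroblast state, at 5 ng/ml for 24 h by the study's methods. The 4 libraries labelled GFP carried a control vector (an empty vector in the methods) and the 4 labelled OEIRF7 were transduced to overexpress IRF7, an interferon regulatory factor that acts as a transcription factor. The submitters' design text names an adeno-associated virus as the carrier and the methods an adenovirus. There were no cells without TGF-β, so the comparison is of OEIRF7 against GFP libraries under TGF-β and does not show the effect of TGF-β itself. A legend that covers the RNA-seq together with other experiments speaks of biological replicates, in a number that differs from the libraries per group, and neither source ties these libraries to separate animals or cultures or gives age or sex. The p-values therefore measure the spread between these libraries, which may be technical.

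A laminin is a cross-shaped trimer of an alpha, a beta and a gamma chain, wound together along a coiled coil before secretion. The alpha chain ends in globular domains that bind integrins and α-dystroglycan, so the alpha chain sets which receptor a basement membrane engages. In the heart, α2 laminins surround cardiomyocytes, α4 and α5 laminins lie in vessel walls, and the α3 and β3 chains are known mainly from epithelia.

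The libraries held 24454801 to 28658826 counts over all genes, 24888589 to 27095611 with the GFP label and 24454801 to 28658826 with the OEIRF7 label, and 13533 genes passed the filter on low counts. Mouse Irf7, the gene named in the label, had 2272 to 3680 counts in the GFP libraries and 380 to 421 in the OEIRF7 libraries. Its log2 fold change was -2.96 (SE 0.12, adjusted p = 7.72e-11, edgeR), which goes against the label. The study's reagents include a human IRF7 adenovirus, whose transcripts need not count under the mouse gene, and an adeno-associated virus with mouse Irf7, whose transcripts could, and which of them these cells received was not settled from the sources. Directions below therefore rest on the labels alone, and "higher" or "lower" means the libraries labelled OEIRF7 against those labelled GFP. Of the 10 fibroblast markers, 6 were called lower and 2 higher. Tcf21, by the paper a label of quiescent cardiac fibroblasts, fell most (log2 fold change -1.33), from 58.3 to 23.1 CPM (counts scaled to the library total). The collagen genes Col1a1 (-0.16) and Col3a1 (-0.53) and the matricellular gene Postn (-0.38) were also called lower. Pdgfra (0.25) and the intermediate filament gene Vim (0.22) were called higher. The 10 markers summed to 16017 to 16611 CPM in GFP libraries and 14654 to 15536 in OEIRF7 libraries. The difference between groups was broad, with 58.9% of the genes tested called at an adjusted p under 0.05 by edgeR's quasi-likelihood test, 29% higher and 29.9% lower. The members have to be read against those shares.

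Promoter sequences were at hand in RefSeq (GRCm38.p6) for 5 of the 9 chains, and 3 are shown because they belong to the member with the largest rise (Lamb3), to a rising alpha chain (Lama5) and to the largest fall among chains with a promoter there (Lama2). Each run gives the 250 bases before the annotated start, 5′ to 3′ on the gene's strand, with GC boxes (GGGCGG on either strand) in capitals. They lie at chr1:193301744-193301993 (plus strand, Lamb3, upstream of the earlier of its starts there), chr2:180225860-180226109 (minus strand, Lama5) and chr10:27616943-27617192 (minus strand, Lama2).
Lamb3: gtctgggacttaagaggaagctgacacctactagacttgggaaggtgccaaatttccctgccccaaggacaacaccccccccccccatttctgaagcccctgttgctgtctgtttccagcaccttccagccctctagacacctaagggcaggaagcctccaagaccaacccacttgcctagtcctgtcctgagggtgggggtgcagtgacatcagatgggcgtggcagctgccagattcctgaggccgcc
Lama5: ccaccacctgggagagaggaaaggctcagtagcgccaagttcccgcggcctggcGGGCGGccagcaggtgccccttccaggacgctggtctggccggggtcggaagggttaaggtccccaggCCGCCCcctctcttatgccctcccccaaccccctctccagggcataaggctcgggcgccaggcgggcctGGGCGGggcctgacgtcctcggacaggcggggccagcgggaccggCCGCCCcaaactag
Lama2: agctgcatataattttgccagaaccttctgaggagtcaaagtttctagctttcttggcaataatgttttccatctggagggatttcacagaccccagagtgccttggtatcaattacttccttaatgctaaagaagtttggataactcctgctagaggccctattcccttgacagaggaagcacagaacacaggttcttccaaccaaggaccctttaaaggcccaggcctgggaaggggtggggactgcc
The Lama5 stretch was 72.4% G or C with 19 CpG dinucleotides and 4 GC boxes, and that of Lama2 was 47.2% G or C with 0 CpG. The Lamb3 stretch held 58.8% G or C and 2 CpG. By the gene spans given below, the Lama2 and Lamb3 stretches lie inside their genes. Of the 3, only the Lama5 stretch adjoins the outer 5′ end of its gene, so these contents come from unlike positions. In the 300 bases that also take in the first 50 after the start, the interferon regulatory motif GAAANNGAAA matched none of the 6 promoters of the 5 chains on either strand, and neither did the AP-1 motif TGANTCA. These letters occurred in 3.44% and 7.81% of the 32851 promoters of the same length, and the GC box in 35.7%. The GC box was found in 3 of the 5 chains, in Lama5, Lamb1 and, after the start, Lama2. The motifs searched do not overlap one another, and a missing match says only that these letters are not in this window.

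All 9 chains passed the filter on low counts. Of these, 7 were called, 4 higher (Lama3, Lama5, Lamb1 and Lamb3) and 3 lower (Lama1, Lama2 and Lamc1), while Lama4 and Lamb2 were not called. The groups did not overlap for those 7 chains, a separation seen in 53.8% of all genes tested. The median log2 fold change of the 9 was 0.06 and its median size 0.34, beside 0.0015 and 0.25 over all genes. Changes of more than 2-fold were found in Lama1, Lama3 and Lamb3, 3 of 9 chains, where 8.56% of all genes passed that size and the test. These 3 are the least abundant of the chains, as the plot of CPM by library shows. Summed, the 9 chains made up 0.327% to 0.332% of the counts of each GFP library and 0.286% to 0.306% of each OEIRF7 library, without overlap.

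**Figure D1:**
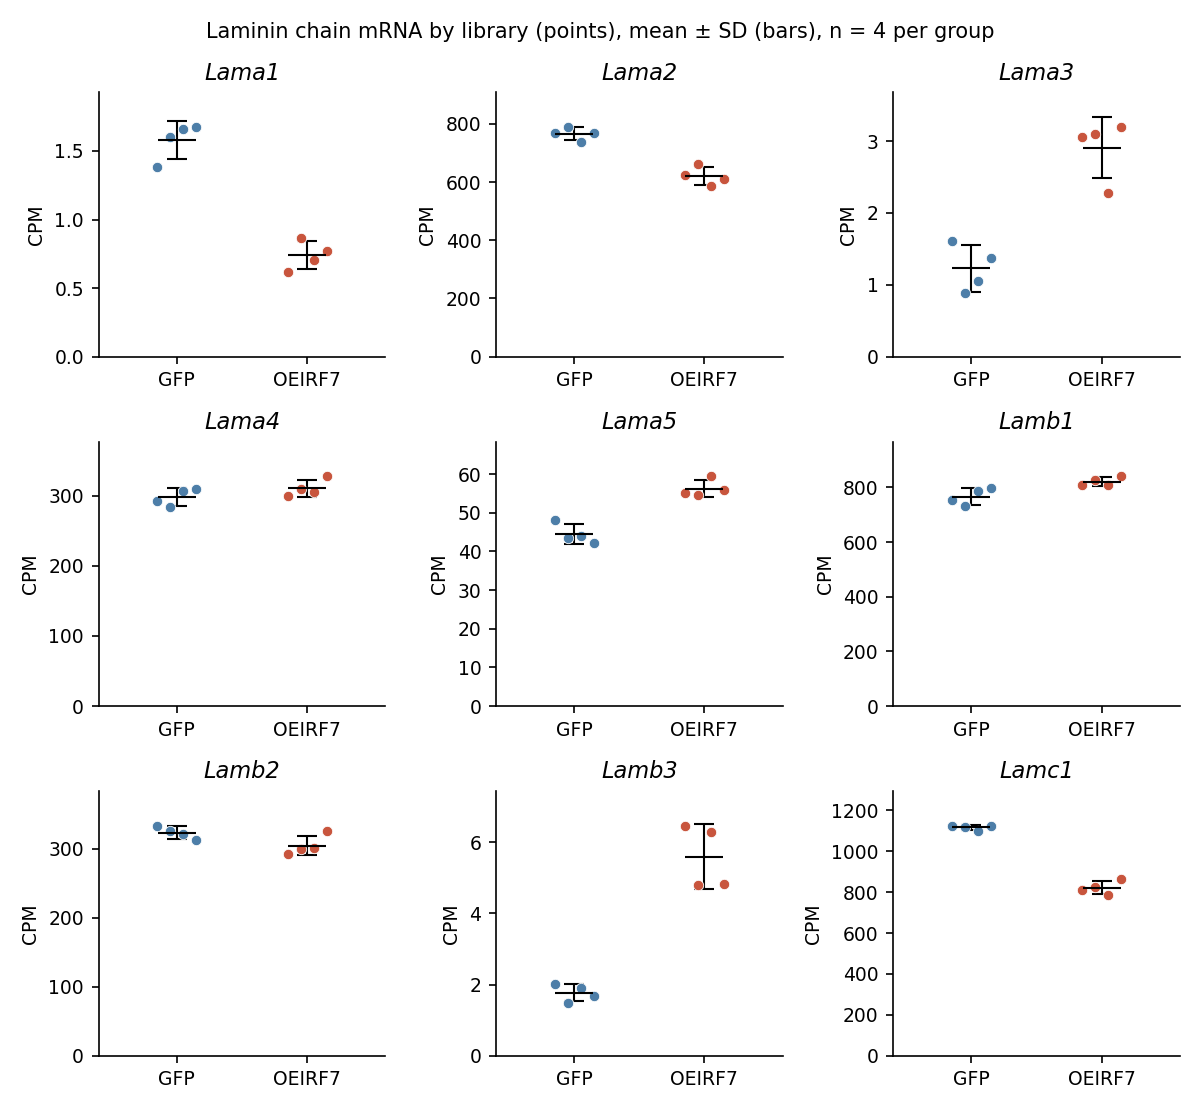
CPM of the 9 laminin chains in each library (points), with the mean and SD of the 4 libraries per group (bars), each panel on its own linear axis from 0. Lamc1, Lama2 and Lama1 sit lower in every library labelled OEIRF7, Lama3, Lama5, Lamb1 and Lamb3 sit higher, and Lama4 and Lamb2 overlap.

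The γ1 chain Lamc1, which joins nearly all laminins of mesenchymal cells and lies at chr1:153218922-153332786 (minus strand, GRCm38), was the most abundant chain in the GFP libraries. It measured 1126, 1117, 1100 and 1124 CPM in GFP replicates 1 to 4. In the OEIRF7 replicates it measured 809, 824, 788 and 866 CPM. Every OEIRF7 library was thus below every GFP library, by more than the spread within either group. The log2 fold change was -0.44 (SE 0.03, 95% interval -0.51 to -0.38, adjusted p = 1.67e-08, edgeR), so that Lamc1 fell by 26.4%.

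Lama2 encodes the α2 chain, the cardiac and skeletal muscle laminin chain whose loss causes a congenital muscular dystrophy, and spans chr10:26980036-27619758 (minus strand). Its level was 768, 791, 736 and 769 CPM in the GFP replicates. It was 625, 661, 585 and 610 CPM in the OEIRF7 replicates. The groups did not overlap, and the log2 fold change was -0.30 (SE 0.04, 95% interval -0.38 to -0.22, adjusted p = 6.16e-06, edgeR). An antisense gene, Gm48084, shares 631 of the exon bases of Lama2, which number 16338 in all. The strand setting of the counting is not given in the sources used here, so reads over the shared bases alone cannot be assigned to either gene. In RNA from whole cultures, fewer cells of a type and less RNA per cell cannot be told apart, here or for any other chain.

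Lama1, the α1 chain of early embryonic basement membranes (chr17:67697259-67822647, plus strand), was barely present. It had 37, 40, 41 and 44 counts in the GFP replicates and 16, 25, 18 and 19 in the OEIRF7 replicates. All OEIRF7 libraries were lower, at 0.74 ± 0.102 CPM against 1.58 ± 0.137 CPM (SD, n = 4). The log2 fold change of -1.09 had a wide error at this depth (SE 0.22, 95% interval -1.55 to -0.62, adjusted p = 0.00056, edgeR). On the FPKM scale (fragments scaled to transcript length and library size) with 1 added before the log, the call was lost (log2 fold change -0.11, adjusted p = 0.068, limma). The means of 0.163 FPKM in GFP and 0.0775 FPKM in OEIRF7 libraries lie well below that added 1. With 0.1 added the call held (log2 fold change -0.56, adjusted p = 0.035, limma).

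Among the chains that rose, Lamb3 moved most. It encodes the β3 chain, spans chr1:193207699-193343878 (plus strand) and is otherwise an epithelial chain. GFP replicates held 54, 37, 47 and 44 counts of Lamb3, and OEIRF7 replicates 167, 139, 160 and 119. The lowest OEIRF7 library therefore lay above 2-fold the highest GFP library. The means were 1.77 ± 0.238 and 5.59 ± 0.91 CPM (SD, n = 4), a fold of 3.15 (log2 fold change 1.65, SE 0.16, 95% interval 1.32 to 1.99, adjusted p = 4.53e-07, edgeR). The span of Lamb3 also holds Hsd11b1 and G0s2 on the opposite strand, with 0 exon bases shared. Hsd11b1, which regenerates active glucocorticoid, was at 527 and 525 CPM (log2 fold change -0.01, adjusted p = 0.90, edgeR), and G0s2, an inhibitor of lipolysis, fell from 10.3 to 3.56 CPM (log2 fold change -1.53, adjusted p = 3.41e-06, edgeR).

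Lama3, the α3 partner of β3 (chr18:12333819-12583013, plus strand), had 43, 22, 26 and 36 counts in the GFP replicates. The OEIRF7 replicates had 79, 90, 58 and 79 counts, all above the GFP libraries. The log2 fold change was 1.24 (SE 0.21, 95% interval 0.79 to 1.68, adjusted p = 0.00013, edgeR). The antisense gene Gm29200 shares 197 of the 10745 exon bases of Lama3. Lama3 and Lamb3, which share trimers in epithelia, were thus both called higher. Outside the 9 chains, Lamc3, with 6 to 13 counts in GFP libraries and 1 to 6 in OEIRF7 libraries, did not pass the filter. Lamb4 was not found by its symbol among the deposited genes.

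Markers of epithelia were near the floor beside these rises. The 4 markers (Epcam, Cdh1, Krt5 and Krt14) summed to 0.191 to 0.486 CPM in GFP libraries and 0.649 to 0.853 CPM in OEIRF7 libraries, and the 1 tested, the cell adhesion gene Cdh1, rose from 0.127 to 0.466 CPM. Of 6 mesothelial markers, 2 rose and 2 fell, with sums of 151 to 159 CPM in GFP libraries and 105 to 119 CPM in OEIRF7 libraries. Krt19, a keratin of simple epithelia and mesothelium, rose from 4.75 to 18.5 CPM, whereas Upk3b, a mesothelial membrane gene, fell from 51.8 to 20.8 CPM. No marker of either list was at 0 in all libraries. The part of such cells in the rise of Lama3 and Lamb3 was not tested.

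**Figure D2:**
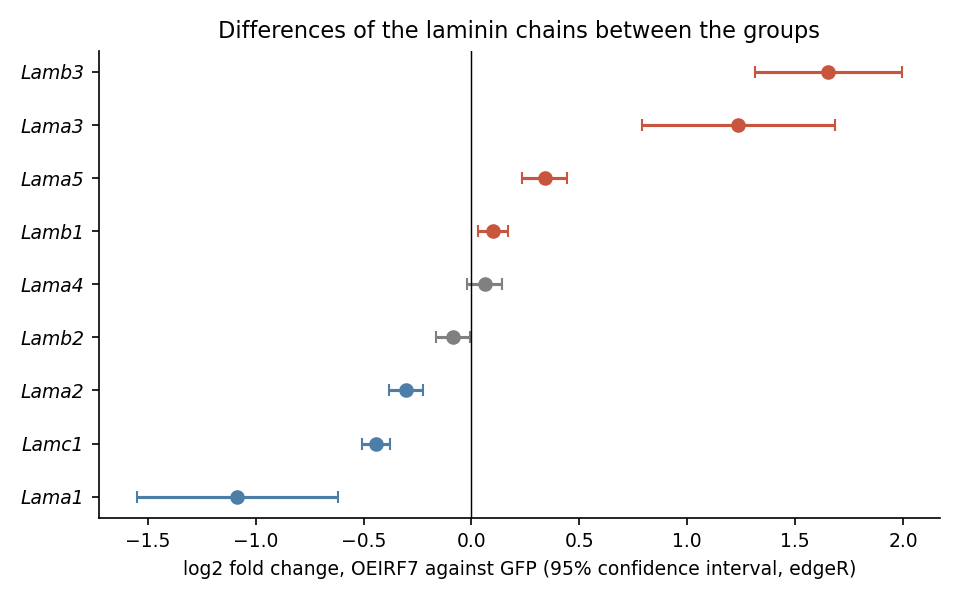
Log2 fold change of each laminin chain, OEIRF7 against GFP, with 95% confidence intervals from edgeR (4 libraries per group). Red marks chains called higher, blue lower and grey not called; the interval of Lamb3 runs from 1.32 to 1.99 and that of Lama1 from -1.55 to -0.62.

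The vascular alpha chain Lama5 rose by less. Its counts were 1291, 1085, 1084 and 1105 in the GFP replicates and 1418, 1582, 1515 and 1378 in the OEIRF7 replicates. Scaled to depth, these were 44.4 ± 2.61 and 56.2 ± 2.25 CPM (SD, n = 4) without overlap. The log2 fold change was 0.34 (SE 0.05, 95% interval 0.24 to 0.44, adjusted p = 2.74e-05, edgeR). Lama5 lies at chr2:180176373-180225859 on the minus strand, directly downstream of the GC-rich promoter shown above.

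Lama4, the α4 chain of mesenchymal and endothelial basement membranes (chr10:38965515-39110188, plus strand), was at 292, 283, 307 and 309 CPM in the GFP replicates. It was at 300, 309, 305 and 328 CPM in the OEIRF7 replicates, so that the groups overlapped. The log2 fold change of 0.06 had an interval of -0.02 to 0.14 (adjusted p = 0.19, edgeR), which leaves room for a small rise but not for one of the size of Lama5.

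The main beta chains differed little between the groups. Lamb1, the β1 chain that pairs with γ1 in most tissues (chr12:31265234-31329644, plus strand), was at 753, 732, 786 and 796 CPM in the GFP replicates and at 808, 826, 809 and 842 CPM in the OEIRF7 replicates. All OEIRF7 libraries were higher, but the log2 fold change was only 0.10 (SE 0.03, 95% interval 0.03 to 0.17, adjusted p = 0.016, edgeR). That call was close to the threshold and was lost without GFP replicate 1 (adjusted p = 0.055, edgeR) or GFP replicate 2 (adjusted p = 0.051, edgeR). Without any other single library it held, with an adjusted p of at most 0.043 (edgeR). Lamb2, the β2 chain of synapses, vessels and glomeruli (chr9:108479736-108490530, plus strand), was at 334, 326, 321 and 312 CPM against 292, 299, 301 and 325 CPM. The groups overlapped through OEIRF7 replicate 4, the log2 fold change was -0.09 (95% interval -0.17 to -0.01) and the adjusted p was 0.058 (edgeR). Without OEIRF7 replicate 4 the log2 fold change was -0.12 (adjusted p = 0.0086, edgeR), and without GFP replicate 4 it was -0.11 (adjusted p = 0.039, edgeR).

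Exact two-sided permutation tests of the mean log2 CPM gave 0.029, the smallest value that 4 against 4 libraries allow, for each of the 7 called chains. They gave 0.257 for Lama4 and 0.086 for Lamb2.

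To compare chains with one another, levels were taken per transcript length as FPKM. In the GFP libraries the mean FPKM ran in the order Lamc1 (145), Lamb1 (132), Lama2 (91.5), Lamb2 (76.2), Lama4 (48.8), Lama5 (3.86), Lamb3 (0.418), Lama3 (0.173) and Lama1 (0.163). Each chain was apart from the next over the libraries except Lama3 and Lama1, whose ranges overlapped. In the OEIRF7 libraries Lamb1 (144 FPKM) stood above Lamc1 (109 FPKM), and the ranges of Lama2 (74.6 FPKM) and Lamb2 (73.8 FPKM) overlapped. Lama3 (0.45 FPKM) was then apart from Lama1 (0.0775 FPKM). Of the laminin chains, the cultures thus carried mainly mRNA for α2, α4, β1, β2 and γ1 in both groups. The 3 chains with the largest fold changes had mean levels of at most 1.44 FPKM.

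Within the alpha class, Lama2 gave 63.3% ± 1.54 of the summed FPKM in GFP libraries and 56.5% ± 1.81 in OEIRF7 libraries (SD, n = 4). Lama4 went from 33.8% ± 1.53 to 39.3% ± 1.63, and Lama5 from 2.67% ± 0.175 to 3.78% ± 0.279. These 3 shares did not overlap between the groups, and the share of Lama4 was higher in every OEIRF7 library although its own level was not called. The summed alpha FPKM was 144 ± 2.08 in GFP and 132 ± 5.29 in OEIRF7 libraries. The summed beta FPKM of 209 ± 3.74 and 219 ± 9.26 overlapped, as did the shares of Lamb1 (63.2% and 65.8%) and Lamb2 (36.6% and 33.6%). Lamc1 alone, at 145 FPKM, was level with the alpha sum in the GFP libraries, where their ranges overlapped, and at 109 FPKM lay below it in every OEIRF7 library, as the stacked bars show.

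**Figure D3:**
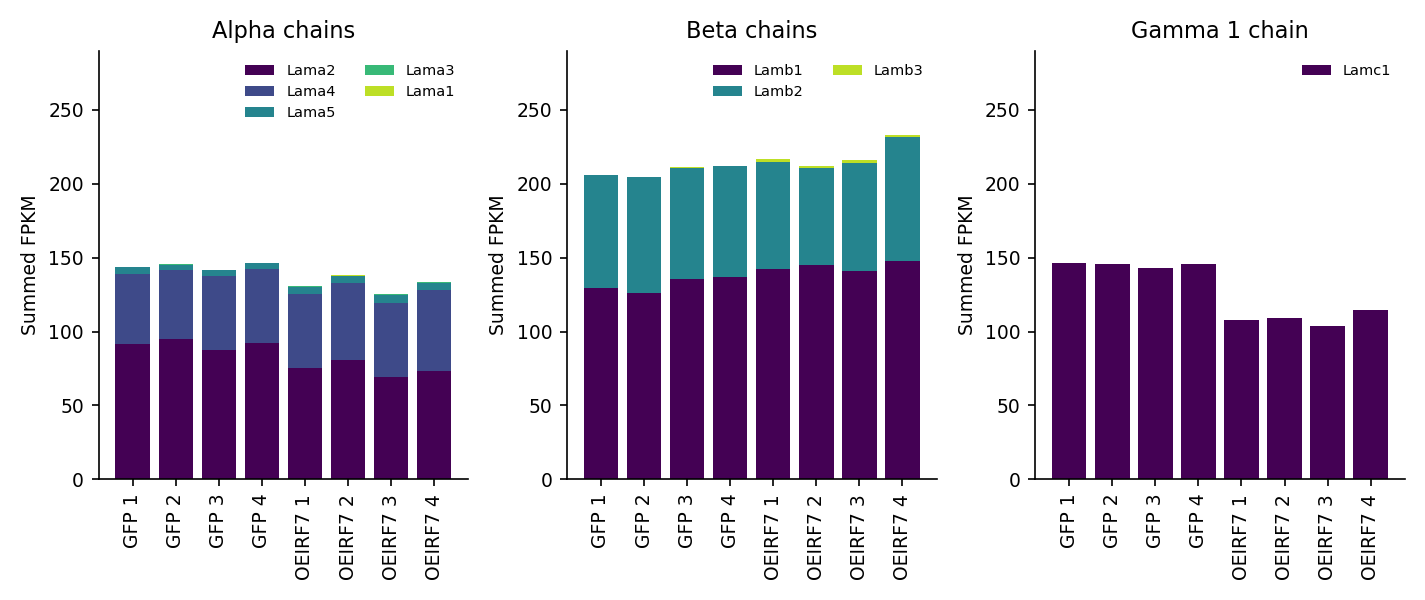
FPKM of the alpha chains, the beta chains and Lamc1, stacked by library (bars from 0). The alpha sum and Lamc1 are lower in every OEIRF7 library, Lamc1 with means of 145 and 109 FPKM, while the beta sum overlaps between the groups.

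The balance between chains of a class was tested as the log2 ratio of their FPKM, in 3 pairs. The ratio of Lama4 to Lama2 was 0.488 to 0.575 in GFP libraries and 0.64 to 0.747 in OEIRF7 libraries, a difference of 0.38 on the log2 scale. The ratio of Lama5 to Lama4 was 0.0724 to 0.0874 and 0.0905 to 0.103, a log2 difference of 0.28. Both pairs parted the groups in the exact two-sided permutation test (p = 0.029 each, adjusted p = 0.043 over the 3 ratios). Lama2 and Lama5 each parted the groups by themselves and Lama4 was not called, so these ratios largely restate those differences. Lamb1 to Lamb2 ran from 1.61 to 1.83 and from 1.77 to 2.23, with a log2 difference of 0.18 and overlapping libraries (exact permutation p = 0.086, adjusted p = 0.086). From counts in place of FPKM the same log2 difference was 0.19, with an exact permutation p of 0.029.

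The genes whose log2 CPM followed Lamb3 most closely over the 8 libraries, among 10320 genes, were Fam214b (Pearson r = 0.997), the transcription factor Runx1 (r = 0.996) and Mfn1, a mitochondrial fusion gene (r = 0.996). For Lama1 they were the transcription factor Mecom (r = 0.996), Cdc42ep3, a partner of the GTPase Cdc42 (r = 0.993), and the deubiquitinase Otub2 (r = 0.993). The points share their libraries and depth, and 1854 and 1825 genes passed 0.9 for the respective chains. The 8 points also form the GFP and OEIRF7 groups, which did not overlap in 53.8% of all genes tested. A high r therefore need not mean more than a difference between the same groups, and the values are given as a description without a test.

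Of 14 tested genes for receptors and other cell-surface laminin binders, 5 rose and 6 fell, with a median log2 fold change of -0.16. Those counts, and those of the lists below, stand beside 29% called higher and 29.9% lower over all genes tested. Itga2, the α2 integrin subunit that binds collagen and laminin, rose most, from 7.88 to 53 CPM (log2 fold change 2.75, SE 0.11, adjusted p = 7.69e-11, edgeR). Itga7, the laminin receptor subunit of muscle, rose from 12.9 to 22.4 CPM, and Sdc4, a syndecan of focal adhesions, from 67.6 to 106 CPM. Itga1, which like Itga2 pairs with β1 integrin to bind collagen and laminin, fell from 54.3 to 22.4 CPM (log2 fold change -1.28, adjusted p = 9.48e-09, edgeR). Itga3, whose product is a main receptor of α3 and α5 laminins, fell from 96.2 to 45.9 CPM (log2 fold change -1.07, adjusted p = 5.71e-11, edgeR). The syndecan Sdc1 fell from 59.9 to 41.6 CPM. Itga6, the other main alpha subunit for these laminins, rose from 32.3 to 40.2 CPM (log2 fold change 0.32, adjusted p = 9.78e-05, edgeR), and Itgb1, the β1 subunit that pairs with both, from 1955 to 2234 CPM (log2 fold change 0.19, adjusted p = 1.2e-05, edgeR). Itgb4, the β4 integrin subunit, was at 4.91 and 4.13 CPM and was not called (log2 fold change -0.25, adjusted p = 0.19, edgeR). Lama3 and Lama5 were thus called higher, while of these integrin genes Itga6 and Itgb1 were called higher, Itga3 lower and Itgb4 neither.

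Dag1, which encodes dystroglycan, the non-integrin receptor of α2 laminin, fell with Lama2, from 587 to 466 CPM (log2 fold change -0.33, adjusted p = 1.12e-06, edgeR). Of the 11 tested genes of the dystrophin-glycoprotein complex, which ties dystroglycan to actin, 2 rose and 5 fell (median log2 fold change -0.31). Sspn (sarcospan) fell from 20.6 to 7.23 CPM, Dmd (dystrophin) from 32.7 to 22 CPM and Sntb2, a syntrophin adaptor, from 92.2 to 64.1 CPM. Dtnb, a dystrobrevin, rose from 13.8 to 19.9 CPM and Sgcd (delta-sarcoglycan) from 6.42 to 7.87 CPM. Of the 10 tested enzymes that build or prime the laminin-binding glycan of dystroglycan, 1 rose and 6 fell (median -0.17). B4gat1, a glycosyltransferase of that glycan, fell from 33.1 to 26.6 CPM (log2 fold change -0.31, adjusted p = 0.00026, edgeR), whereas the kinase Pomk rose from 25.5 to 30.1 CPM (log2 fold change 0.24, adjusted p = 0.0053, edgeR). With no scaling beyond library size 2 enzymes were called higher.

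Among the 22 other basement membrane genes, 4 rose and 14 fell, with a median log2 fold change of -0.23. Col4a1, a main chain of the collagen IV network that lies beside the laminin network, fell from 4551 to 2735 CPM (log2 fold change -0.73, adjusted p = 8.24e-10, edgeR). Fras1 fell from 4.63 to 1.11 CPM (log2 fold change -2.06) and its partner Frem1 from 4.02 to 1.76 CPM (log2 fold change -1.19), both parts of a complex at the epithelial basement membrane. Nid1 (nidogen 1), which bridges the γ1 chain and collagen IV, rose from 1676 to 2085 CPM (log2 fold change 0.31, adjusted p = 2.65e-07, edgeR) while Lamc1 fell. Agrn (agrin), a proteoglycan that binds laminin and dystroglycan, rose from 153 to 190 CPM, and Tinagl1, a matricellular basement membrane protein, from 116 to 191 CPM. The plot of partner genes shows these lists gene by gene.

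**Figure D4:**
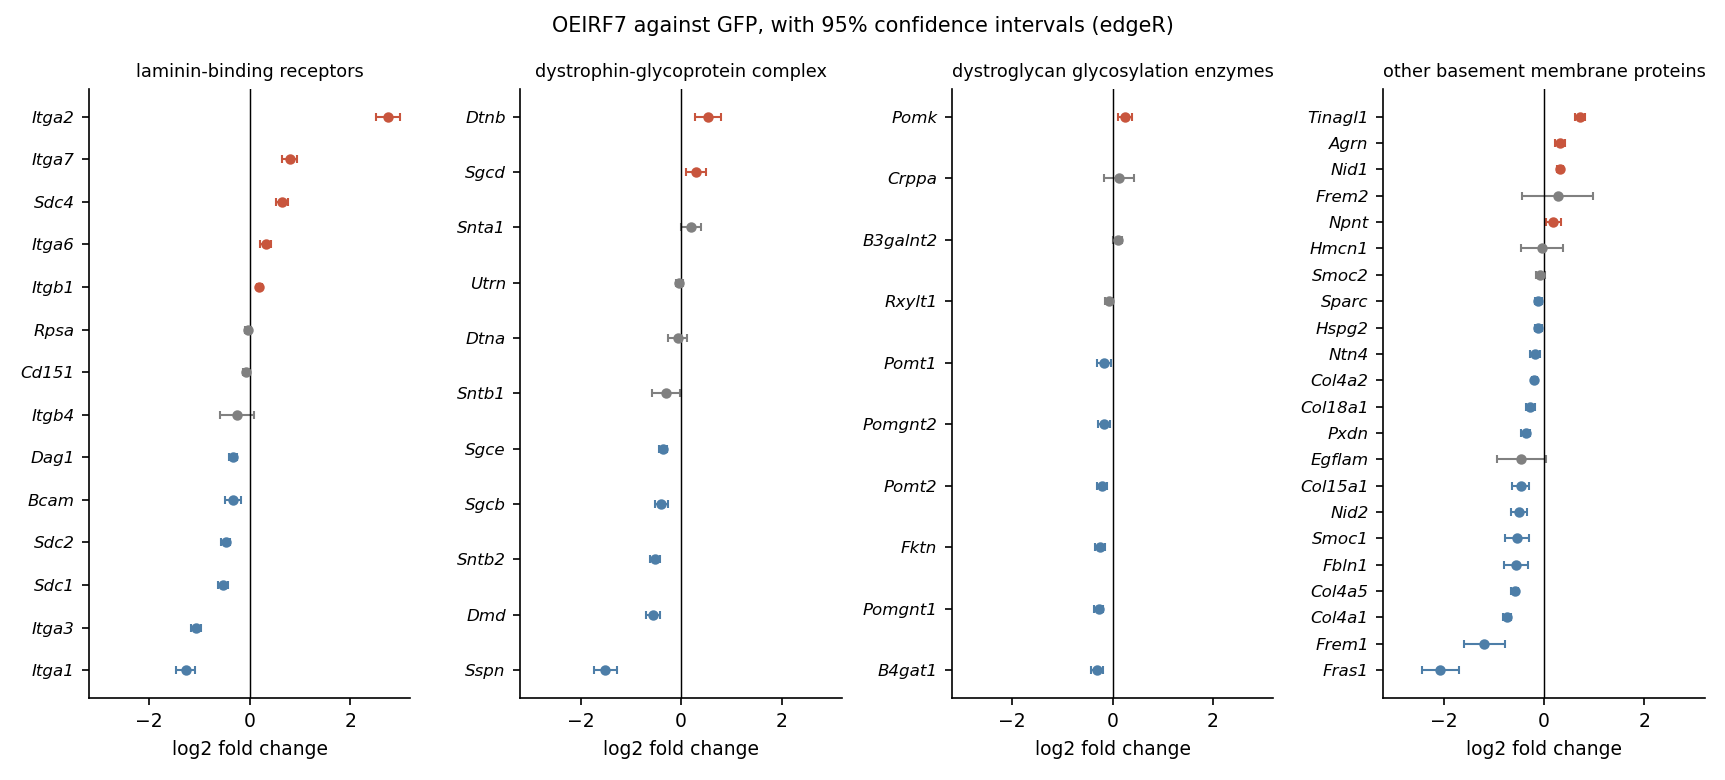
Log2 fold change, OEIRF7 against GFP, with 95% confidence intervals (edgeR), of tested genes for laminin-binding receptors, the dystrophin-glycoprotein complex, dystroglycan glycosylation enzymes and other basement membrane proteins. Red was called higher, blue lower and grey not called; Itga2 stands at 2.75 and Fras1 at -2.06.

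Markers of other cell types that make laminins were also read, beside the 58.9% of all genes tested that were called. Of 7 endothelial markers 3 rose and 1 fell (summed 217 to 231 CPM in GFP and 221 to 250 CPM in OEIRF7 libraries), and of 5 tested mural markers 2 rose, 2 fell (122 to 133 and 105 to 127 CPM). The 3 tested Schwann cell markers were not called (13.5 to 15.9 and 12.9 to 17.6 CPM). The 1 cardiomyocyte marker of 7 that was tested, Tnnt2, fell from 11.3 to 7.78 CPM (all 7 markers: 9.8 to 13.6 and 7.73 to 9.81 CPM). Each range in brackets is a sum over all markers of its list, tested or not, in GFP and then OEIRF7 libraries. Of 6 macrophage markers 4 rose (264 to 314 and 335 to 371 CPM), and of the 10 fibroblast markers 2 rose and 6 fell. None of these markers was at 0 in all libraries. Their part in the levels of Lama2, Lama4, Lama5 and the other chains was not tested.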

How the data were processed

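RNA-seq libraries from 8 samples were deposited as a single table of counts per gene and FPKM per gene. Per the methods, the authors trimmed reads with Trimmomatic, mapped them to GRCm38 (Ensembl 99) with HISAT2, obtained the deposited counts with HTSeq-count and the deposited FPKM values with Cufflinks. Tool versions and the strand setting are not given in the sources used here, and the labels and methods name different RNA and library kits. The table also holds group means, log2 fold changes, p-values and false discovery rates of the authors' own comparison, which were not used. The letters "nc" had been replaced by "GFP" in 121 symbols, restored from gene identifiers (GENCODE M21 on GRCm38, 22219 of 22274 found).

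Counts were filtered (filterByExpr), scaled by TMM and fitted with edgeR 4.0.16 (quasi-likelihood, R 4.3.3) over all 13533 genes, without covariates, and p-values were adjusted by Benjamini-Hochberg. Ratios and single genes were compared by exact permutation. Replicates of a group differed by more than sampling noise (chi-square per degree of freedom 2.69 to 8.67). Data were simulated for this comparison with the same dispersion for every gene (13454 genes, 200 of those above 1 CPM changed 2-fold). On them edgeR recovered 100% with 2.91% false calls. That setting holds no smaller changes and no gene-specific spread, so it gives no error rate for the chains. Alternatives were DESeq2 1.42.0, limma 3.58.1 on log2(FPKM + 1) and log2(FPKM + 0.1), other scalings and filters, a replicate block and leaving out each library.

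Named beside the 9 members were, from each partner list, up to 3 largest rises and falls with an adjusted p under 0.05, no overlap and a mean above 1 CPM. Dag1, Itga6, Itgb1, Itgb4, Col1a1, Hsd11b1, G0s2 and the Lama5 promoter were chosen outside that rule, after values were seen. Some genes of these lists are not reported here and were left out of the list counts. The members, gene lists and tests were chosen with earlier results of these data known. Promoters came from RefSeq.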

Additional observations from a re-analysis of the deposited data

Results flagged for a closer look

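Of 24 groups of 4 libraries examined (the log2 CPM of the 9 chains and the 3 log2 ratios between chains, in each group), 1 held a library far from the rest, where chance gives about 1 in 20. Lama3 in OEIRF7 replicate 3 was at 1.24 on the log2 CPM scale, below 1.65, 1.67 and 1.71 in the other OEIRF7 replicates, the gap to the nearest being 0.868 of the whole range, above Dixon's critical value at the 95% level. That library had 58 counts of Lama3. Without it the log2 fold change of Lama3 was 1.34 (adjusted p = 6.91e-05, edgeR).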

How the results depend on the processing

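Over 16 alternatives none of the 9 chains changed direction, 3 to 4 were called higher and 2 to 4 lower, and the calls over all genes ran from 3688 to 4346 higher and from 3309 to 4154 lower. Lama2, Lama3, Lama5, Lamb3 and Lamc1 stayed called in each alternative and Lama4 in none. With the replicate block 4 chains were called higher and 4 lower, since Lamb2 (log2 fold change -0.09, adjusted p = 0.049, edgeR) passed. The labels tie the numbers to no shared source, and the deviations of same-numbered libraries correlated at 0.0792, 0.0953, 0.138 and 0.104, each library best with its own number, a hint of pairing from the data and not from the design. Lamb2 also passed with every gene of at least 1 count in total kept (adjusted p = 0.048, edgeR). The log2 ratio of Lamb1 to Lamb2 passed from counts in place of FPKM (0.19, exact permutation p = 0.029), and leaving out 1 library moved it between 0.12 and 0.23. Scalings and units shifted the median log2 fold change of all genes by at most 0.035. The causes of these shifts were not tested. Depth limits Lama1, Lama3 and Lamb3, with 16 to 167 counts per library, and their intervals are the widest of the 9.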
